A study of Mus musculus with 67 samples.

Results

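Primitive endoderm (PrE) of labelled age E5.25 was compared with PrE of labelled age E5.0 in wild-type mouse embryos, over all genes. The members were the 6 PrE libraries of these ages, 3 of E5.0 and 3 of E5.25, of 67 libraries in all. They were taken by their labels, and no measured value chose them. Ages are in days of embryonic development (E). All groups used here were wild type, and the study's design text names a mouse line with an EGFP reporter under the Pdgfra promoter for isolating lineages. Such a reporter marks cells by Pdgfra expression, so the level of Pdgfra itself is tied to the isolation. The labels give 10 to 100 cells per library and 17 cycles of amplification. They call the 3 libraries of a group biological replicates and name no embryos behind each, so the spread that p-values measure may be technical. Whether the PrE embryos of E5.0 and E5.25 were cultured in Matrigel or taken from the uterus is not stated in their labels, and the 2 ages may differ in this. The other groups used for comparison were epiblast (Epi) of E5.0 and E5.25 without an in vivo suffix, Epi of E4.75, Epi of E5.0 labelled in vivo, PrE of E4.5 and E4.75, ExE (extra-embryonic ectoderm) and TGC (trophoblast giant cells) of E4.75, and visceral endoderm (VE) of E5.5 labelled in vitro.

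The primitive endoderm forms an epithelium beneath the epiblast of the implanting blastocyst. Cells that stay on the epiblast and ExE become visceral endoderm, a polarized layer that takes up maternal protein through endocytic receptors and secretes carriers of lipid, retinol and thyroid hormone. Cells that leave for the inner wall of the trophoblast become parietal endoderm, which lays down a thick basement membrane. At the distal tip, a group of visceral endoderm cells secretes inhibitors of Nodal and WNT and later moves to one side, where it sets the anterior of the embryo.

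Values are TPM, a measure scaled for transcript length and library total, so that levels of different genes can be compared in kind but depth is unknown. A gene was called when its difference in log2(TPM + 1), E5.25 minus E5.0, was at least 1 in size at a limma adjusted p under 0.05. That scale understates the change of low genes. The ± after a log2 difference is its standard error. It and the p-value rest on a spread per gene shared by all 23 groups, not on the PrE libraries alone. The root mean square SD in log2 ran from 0.204 to 1.04 over these groups. It was 0.292 in PrE of E5.0 and 0.316 in PrE of E5.25. Levels written as a value against another are means of E5.25 and of E5.0. The number of genes at 1 TPM or more was 10379 to 10684 in these libraries. Pearson correlations across genes were 0.991 within E5.0, 0.99 within E5.25 and 0.977 to 0.981 between the ages. E5.0 replicate 1 stood apart from its group in several transcripts, abundant or not. Its ribosomal RNA precursor Rn45s was 0.468% of the TPM against 1.22% and 1.14% in replicates 2 and 3, and its beta-actin gene Actb 1.16% against 0.692% and 0.704%. At E5.25 these were 0.402% to 0.531% and 1.19% to 1.28%. Less abundant genes parted in the same library, such as Spry2 (45.0 TPM against 16.7 and 16.0 in replicates 2 and 3) and Tcf7l2 (52.8 against 21.0 and 21.4). Both were higher at E5.25, so in these replicate 1 lay nearer to E5.25. In Epi of E5.0 Spry2 was spread widely too, at 72.0 ± 77.8 TPM (SD, n = 3). The call counts without E5.0 replicate 1 were 402 higher and 172 lower.

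The libraries carried the transcripts of endoderm at both ages. Spink1, a secreted protease inhibitor taken as a marker of these cells, was 3904, 3618 and 3469 TPM at E5.0 and 4931, 4315 and 4314 TPM at E5.25 (log2 difference 0.30 ± 0.46, adjusted p = 0.96). Cer1, a secreted inhibitor of Nodal and BMP taken as a further marker, was 66.9, 71.2 and 64.5 TPM at E5.0 and 64.8, 65.6 and 54.3 TPM at E5.25 (log2 difference -0.14 ± 0.25, adjusted p = 0.99). Both were thus high in all 6 libraries, and neither was called. Of the transcription factors that define the lineage, Gata6 was 16.3 against 11.9 TPM, Gata4 41.3 against 40.5 TPM, Sox17 73.6 against 66.5 TPM and Foxa2 35.9 against 26.1 TPM, none of them called. The summed level of 8 primitive endoderm markers was 2890 to 2980.1 TPM at E5.0 and 1863 to 2105 TPM at E5.25. That of 7 visceral endoderm markers was 9559 to 10158 and 5191 to 6011 TPM, and that of 6 parietal markers 91.3 to 105 and 60.1 to 79.4 TPM.

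Markers of neighbouring tissues moved between the ages. The summed level of 5 giant cell markers was 368 to 387 TPM at E5.0 and 44.6 to 56.0 TPM at E5.25, against 19939 to 23702 TPM in TGC of E4.75. The giant cell cathepsin Ctsq was at 0 in all 6 libraries. The summed level of 5 ExE markers was 18.1 to 20.1 TPM at E5.0 and 66.3 to 72.7 TPM at E5.25, against 298 to 322 TPM in ExE of E4.75. Among these 5, Bmp4 had means of 7.16 TPM at E5.0 and 43.4 TPM at E5.25, and was 117 TPM in Epi of E5.0. The 6 epiblast markers summed to 278 to 314 TPM and 285 to 364 TPM, most of it from Utf1 (276 to 310.1 TPM at E5.0 and 283 to 363 TPM at E5.25), a chromatin-bound epiblast factor. Among them Fgf4 was at 0 in all 6 libraries and Pou5f1, which encodes OCT4, was 3.54, 1.26 and 2.90 TPM at E5.0 and 0, 0.321 and 0 TPM at E5.25. Uterine stroma markers summed to at most 0.719 TPM and blood markers to at most 1.09 TPM in any library. In such pools fewer cells of a type and less RNA per cell cannot be told apart. The part of such cells in the results was not tested except where a value is given.

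**Figure D1:**
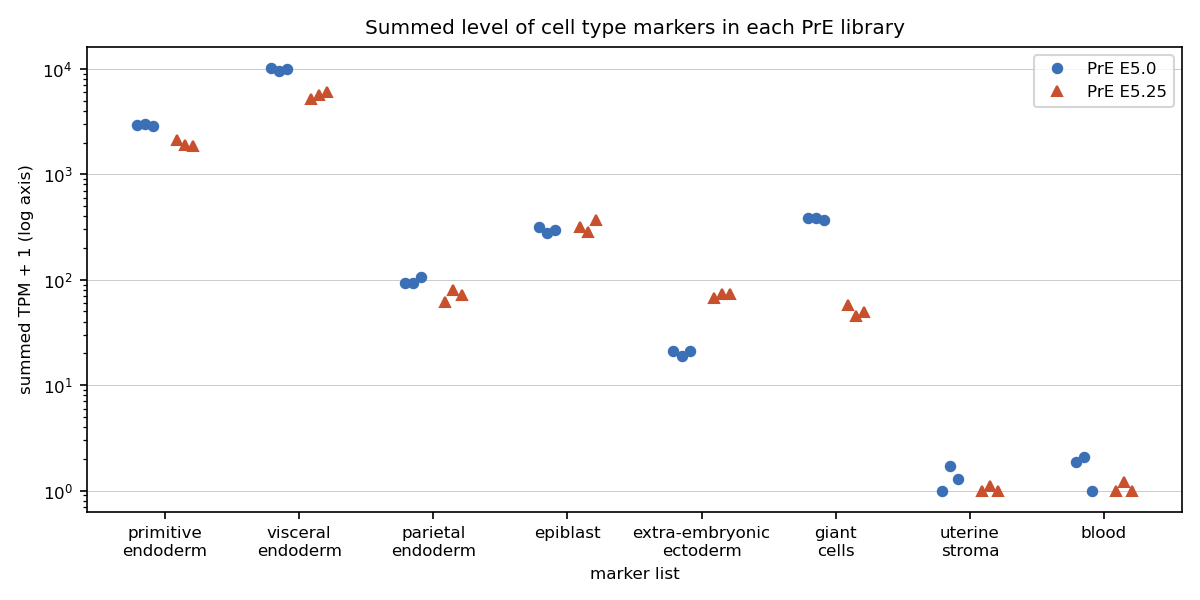
Summed TPM + 1 (log axis) of fixed marker lists in each of the 3 PrE libraries of E5.0 (circles) and of E5.25 (triangles). Giant cell markers lie at 368 to 387 TPM at E5.0 and 44.6 to 56.0 TPM at E5.25, and ExE markers at 18.1 to 20.1 and 66.3 to 72.7 TPM.

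The first comparison asks which transcripts changed in the PrE between these closely spaced ages around implantation. Of 15567 genes tested, 432 were higher at E5.25 (2.78%) and 206 were lower (1.32%). In 427 and 201 of these the 3 libraries of E5.25 did not overlap the 3 of E5.0, as was so for 20.7% (higher) and 13.8% (lower) of all genes tested. The median log2 difference over all genes was 0.03, and 67.7% of the calls were higher. Under median-ratio scaling, which lowers E5.25 against E5.0 by 0.16 log2, 317 genes were higher and 265 lower, so that 54.5% of the calls were higher. After leaving out every gene called higher in TGC or ExE of E4.75 than in PrE of E4.75, 319 higher and 151 lower genes remained, an alternative chosen after seeing the data.

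**Figure D2:**
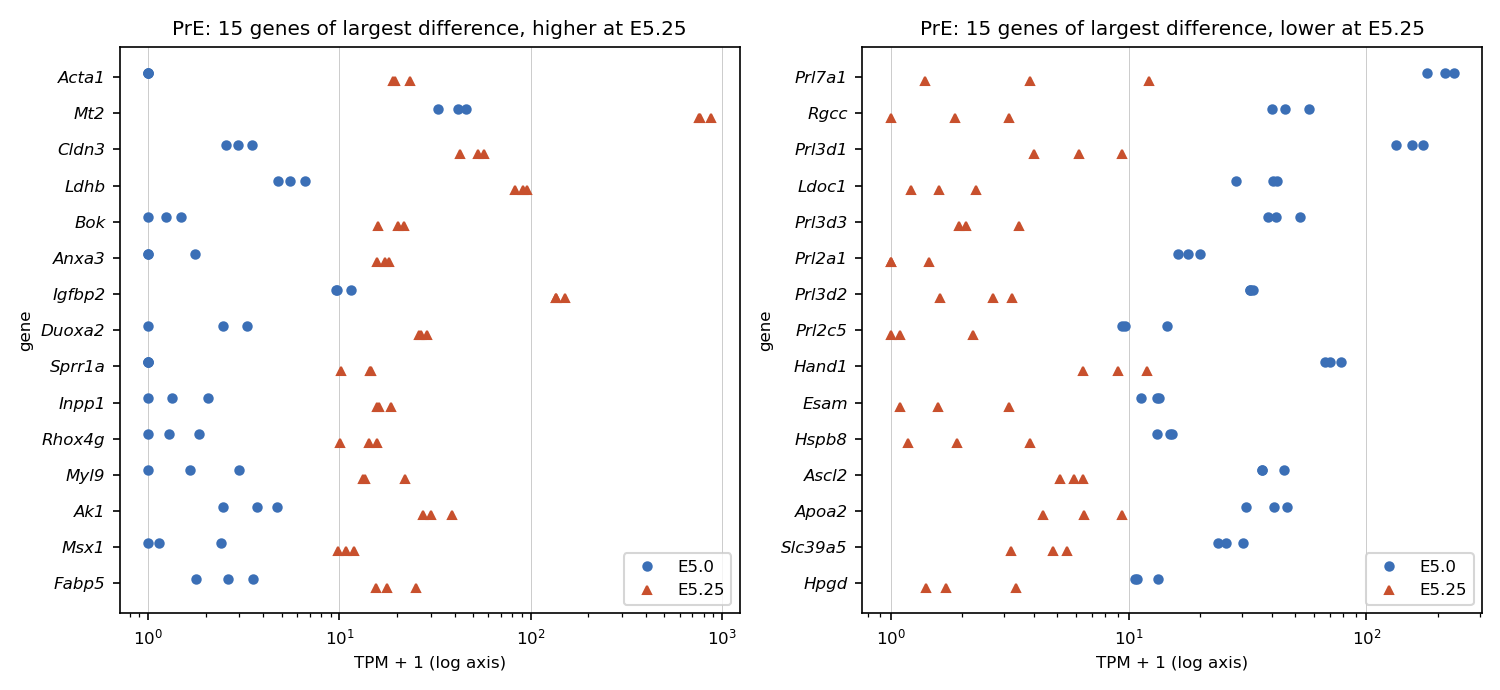
TPM + 1 (log axis) of the 15 genes with the largest difference in each direction, with 1 point per PrE library of E5.0 (circles) and E5.25 (triangles). Non-overlapping libraries were a condition for choosing these 30 genes.

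Metallothionein transcripts were the most abundant of the genes with the largest rise. These small cysteine-rich proteins bind zinc and copper. Mt2 (chromosome 8, 94172618 to 94173567, a protein-coding gene, GRCm38.p6) was 40.7, 44.8 and 31.8 TPM at E5.0 and 766, 752 and 878 TPM at E5.25 (log2 difference 4.33 ± 0.20, adjusted p = 7.7e-23). The E5.25 libraries were all far above those of E5.0. Its neighbour Mt1, named after its values were seen, was 370.3, 317 and 344 TPM at E5.0 and 1875, 2012 and 2289 TPM at E5.25 (log2 difference 2.58 ± 0.17, adjusted p = 1.7e-16). Both were also lower in PrE of E4.75, at 181 ± 4.65 and 806 ± 55.6 TPM, and in VE of E5.5 in vitro, at 315 ± 43.8 and 974 ± 159 TPM (SD, n = 3 each). The levels of Mt2 in Epi of E5.0 (529 TPM), ExE of E4.75 (906 TPM) and TGC of E4.75 (767 TPM) were near that of PrE of E5.25, and in PrE of E4.5 it was 50.1 TPM. PrE of E4.5 and E5.0 were thus the low groups among these.

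The 250 bases before the start of Mt2 and Mt1 are shown because both genes rose together. As background, metals induce this family through short response elements near the start. They are from RefSeq on GRCm38.p6, plus strand, chr8:94172368-94172617 for Mt2 and chr8:94178839-94179088 for Mt1. Capitals mark the metal response element core TGCGCNC or TGCACNC, searched on both strands.
Mt2: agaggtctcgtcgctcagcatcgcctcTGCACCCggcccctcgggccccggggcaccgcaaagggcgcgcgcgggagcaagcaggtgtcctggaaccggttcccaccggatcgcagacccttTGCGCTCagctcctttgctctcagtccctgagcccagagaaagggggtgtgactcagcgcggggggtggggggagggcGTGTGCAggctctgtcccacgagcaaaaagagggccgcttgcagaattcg
Mt1: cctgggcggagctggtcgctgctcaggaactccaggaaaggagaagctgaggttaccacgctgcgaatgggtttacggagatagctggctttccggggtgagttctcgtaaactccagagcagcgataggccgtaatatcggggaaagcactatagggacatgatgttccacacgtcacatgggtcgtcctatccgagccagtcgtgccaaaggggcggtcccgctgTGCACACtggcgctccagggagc
The Mt2 window holds 3 matches and the Mt1 window 1. Bases after the RefSeq start, or further before it, were not searched, so these counts do not cover the whole promoter of either gene. Of 32841 RefSeq promoters of the same length, 21.4% hold at least 1 match and 1.26% at least 3.

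Acta1 and Myl9, which encode contractile proteins, were among the 15 largest rises, while the abundant actin gene Actb was not called. Acta1 (chromosome 8, 123891758 to 123894775), which encodes skeletal muscle actin, was 0 in all 3 libraries of E5.0 and 17.9, 18.5 and 22.3 TPM at E5.25 (adjusted p = 5.0e-12). It was also listed at 0 in PrE of E4.5 and E4.75, and was 2.2 ± 1.94 TPM in VE of E5.5 in vitro. Myl9, a regulatory light chain of non-muscle and smooth muscle myosin, was 0, 0.662 and 2.00 TPM at E5.0 and 21.0, 12.3 and 12.6 TPM at E5.25 (log2 difference 3.21 ± 0.58, adjusted p = 7.9e-05). Tagln and Flna, actin-binding proteins named after their values were seen, were 5.99 against 0.440 TPM (log2 difference 2.31 ± 0.44) and 7.20 against 0.870 TPM (log2 difference 2.13 ± 0.30). All 4 are low-level transcripts, under 25 TPM in each library.

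The windows of Acta1 and Myl9 are shown because these are the contractile genes among the 15 largest rises. They are from RefSeq on GRCm38.p6, chr8:123894776-123895025 on the minus strand for Acta1 and chr2:156775214-156775463 on the plus strand for Myl9. Capitals mark the CArG box, the palindromic site of serum response factor, searched on both strands.
Acta1: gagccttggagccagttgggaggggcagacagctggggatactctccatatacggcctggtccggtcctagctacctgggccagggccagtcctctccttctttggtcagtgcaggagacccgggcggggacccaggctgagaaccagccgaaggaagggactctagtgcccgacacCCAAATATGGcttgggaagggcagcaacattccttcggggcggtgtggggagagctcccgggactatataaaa
Myl9: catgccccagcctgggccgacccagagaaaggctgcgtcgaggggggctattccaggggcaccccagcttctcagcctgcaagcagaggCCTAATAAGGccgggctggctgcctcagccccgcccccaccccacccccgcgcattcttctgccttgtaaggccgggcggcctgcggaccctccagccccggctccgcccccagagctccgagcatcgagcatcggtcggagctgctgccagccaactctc
Each window holds 1 match, and 1.47% of RefSeq promoters of this length hold at least 1. The windows of Flna and of Fos hold no match, and bases further from the start were not searched. A further window searched, that of Cnn2, holds 1 match, and Tagln had no window to search.

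The keratins Krt8 and Krt18 of simple epithelia rose, while Krt7 fell (given with the giant cell genes). Krt8 was 378, 369.97 and 455 TPM at E5.0 and 1231, 1277 and 1299 TPM at E5.25 (log2 difference 1.67 ± 0.28, adjusted p = 1.9e-05). Its partner Krt18 was 847, 833 and 829 TPM at E5.0 and 1781, 2029.95 and 1994 TPM at E5.25 (log2 difference 1.21 ± 0.15, adjusted p = 7.4e-08). The processed copies of both genes elsewhere in the genome make their levels uncertain. The list of epithelial polarity and junction genes had 3 higher and 0 lower of 20 tested (2.78% and 1.32% of all genes), with a median log2 difference of 0.13 that changed sign under median-ratio scaling (-0.02). The third call, the cadherin Cdh2 (11.9 against 5.13 TPM, log2 difference 1.08 ± 0.33, adjusted p = 0.034), was lost without each of the 6 libraries in turn (adjusted p = 0.054 to 0.13). The claudin Cldn6 was 2114 against 3035 TPM and was not called. Krt8 and Krt18 are also high in ExE (1636 and 2093 TPM) and TGC (2889 and 3475 TPM) of E4.75, and were 61.7 and 183 TPM in PrE of that age.

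Many of the other large rises were of genes that epiblast or ExE libraries also held. Cldn3 (chromosome 5, 134986214 to 134987476), a tight junction claudin, was 1.94, 1.56 and 2.49 TPM at E5.0 and 41.7, 56.3 and 52.2 TPM at E5.25 (log2 difference 4.09 ± 0.35, adjusted p = 6.4e-13). Bok, a BCL2 family protein, was 0.235, 0.493 and 0 TPM at E5.0 and 14.9, 19.1 and 20.8 TPM at E5.25 (log2 difference 3.96 ± 0.51, adjusted p = 9.4e-08). Duoxa2, a maturation factor of the dual oxidase DUOX2, was 1.46, 2.29 and 0 TPM at E5.0 and 25.0, 25.7 and 27.5 TPM at E5.25 (log2 difference 3.75 ± 0.40, adjusted p = 7.0e-10). These 3 genes were at most 2.49 TPM in any E5.0 library and at least 14.9 TPM in any E5.25 library.

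Inpp1, an inositol phosphatase, rose from 0.464 to 15.8 TPM, the homeobox gene Rhox4g from 0.377 to 12.3 TPM, the adenylate kinase Ak1 from 2.63 to 31.0 TPM and the fatty acid binding protein Fabp5 from 1.64 to 18.5 TPM. The annexin Anxa3 rose from 0.253 to 16.1 TPM, the insulin-like growth factor binding protein Igfbp2 from 9.24 to 139.8 TPM and the lactate dehydrogenase subunit Ldhb from 4.63 to 89.1 TPM. The levels in Epi of E5.0 were 308 TPM for Cldn3, 111 for Bok, 114 for Duoxa2, 79.0 for Inpp1, 52.5 for Rhox4g, 169 for Ak1, 87.0 for Fabp5 and 517 for Igfbp2. In ExE of E4.75 Cldn3 was 275, Bok 87.1 and Anxa3 56.5 TPM. In VE of E5.5 in vitro Cldn3, Bok, Anxa3, Inpp1, Duoxa2 and Rhox4g were at 0.132, 0.734, 0.179, 0.361, 0 and 0 TPM, and in PrE of E4.5 and E4.75 the highest mean among these 6 was 3.59 TPM, of Bok. Sprr1a, a cornified envelope precursor, was 0 in all 3 libraries of E5.0 and 9.17, 13.5 and 13.6 TPM at E5.25 (adjusted p = 1.0e-32) and listed at 0 in the 9 other groups used here. Rhox4g has near-identical copies such as Rhox4b, so reads could be split between them.

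ExE genes rose more often than they fell. Of 16 tested in the list for that tissue, 5 were higher and 2 lower (background 2.78% and 1.32%), with a median log2 difference of 0.58. Called or not, 11 had a positive and 5 a negative difference. The summed level of the list was 2448 to 2550 TPM at E5.0 and 1955 to 2095 TPM at E5.25. Its most abundant member Rhox5 was 1803 against 2219 TPM and was not called. Bmp4, a ligand by which ExE signals to the epiblast, was 4.62, 8.07 and 8.79 TPM at E5.0 and 38.4, 43.5 and 48.4 TPM at E5.25 (log2 difference 2.48 ± 0.61, adjusted p = 0.0048). Elf5, a factor of trophoblast stem cells named after its values were seen, was 11.0, 7.36 and 7.75 TPM at E5.0 and 21.7, 21.7 and 16.7 TPM at E5.25 (log2 difference 1.13 ± 0.24, adjusted p = 0.001). Bmp8b was 0 in all 3 libraries of E5.0 and 3.49, 3.86 and 1.83 TPM at E5.25 (adjusted p = 3.5e-04), the orphan receptor gene Esrrb rose from 0 in all 3 libraries to 1.82 TPM, and Sox21 from 0.0316 to 1.35 TPM. The trophoblast factor Tfap2c fell (5.30 against 20.6 TPM, adjusted p = 0.021), as did the homeobox gene Rhox6 (65.5 against 171 TPM, adjusted p = 0.0031). The Tfap2c call was lost without any 1 of the 3 E5.0 libraries or E5.25 replicate 3 (adjusted p up to 0.13). Of all 432 higher genes 99 (22.9%) were called higher in ExE of E4.75 than in PrE of E4.75, a call made for 5.45% of all genes, and these were 11.7% of the 849 genes so called. The same comparison held 47 (22.8%) of the 206 lower genes, and 47 (10.9%) of the higher and 86 (41.7%) of the lower genes were called lower in ExE (8.65% of all genes). With a pseudocount of 0.1 TPM the Bmp4 and Elf5 calls were lost (adjusted p = 0.2 and 0.12), as were both lower calls, Rhox6 and Tfap2c (adjusted p = 0.26 and 0.24). Elf5 was lost by its size under median-ratio scaling. Sox21 was lost by its size under quantile normalization, and in the fit of only the PrE groups (adjusted p = 0.082). With genes kept by their mean over the libraries compared, 3 genes of the list were higher. Against Epi of E4.75, 131 of the higher genes (30.3%, against 8.31% of all genes) and 33 of the lower (16.0%) were higher in Epi than in PrE of that age, and 34 (7.87%) and 86 (41.7%, against 8.69%) were lower. In Epi of E5.0 Elf5 was 95.1, Bmp4 117 and Bmp8b 26.6 TPM, and in Epi of E5.25 they were 44.1, 50.6 and 4.34 TPM. Those epiblast libraries thus held these ExE genes too. Esrrb and Sox21 were lower in Epi of E5.0, at 2.86 and 0.879 TPM. The part of ExE or epiblast cells in these rises was not tested.

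Prolactin family transcripts of the placenta were 6 of the 15 largest falls, and other giant cell genes fell with them. Prl7a1 (chromosome 13, 27633364 to 27642493), a prolactin-like hormone, was 213, 232 and 179 TPM at E5.0 and 11.2, 2.85 and 0.398 TPM at E5.25 (log2 difference -5.69 ± 0.46, adjusted p = 1.8e-13). Prl3d1 (chromosome 13, 27094189 to 27100260), placental lactogen 1 and a product of giant cells, was 172, 155 and 132 TPM at E5.0 and 8.35, 5.21 and 2.99 TPM at E5.25 (log2 difference -4.64 ± 0.85, adjusted p = 1.0e-04). All 3 libraries of E5.0 held these hormones at a high level and all 3 of E5.25 at a low level.

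Prl3d2, Prl3d3, Prl2a1 and Prl2c5 fell from 31.6, 43.3, 17.0 and 10.2 TPM to 1.52, 1.49, 0.152 and 0.440 TPM. Members of the Prl3d and Prl2c groups are near copies of each other, so the split of reads among them is uncertain. Hand1, the helix-loop-helix factor that drives giant cell formation, was 66.3, 69.2 and 77.2 TPM at E5.0 and 8.0, 5.41 and 11.0 TPM at E5.25 (log2 difference -3.02 ± 0.33, adjusted p = 1.9e-09). Rgcc, a cell cycle regulator, was 56.4, 44.3 and 39.2 TPM at E5.0 and 0.860, 2.16 and 0 TPM at E5.25 (log2 difference -4.71 ± 0.57, adjusted p = 2.9e-08). Ldoc1, a retrotransposon-derived gene of placental endocrine cells, was 27.3, 39.6 and 41.0 TPM at E5.0 and 0.591, 0.216 and 1.29 TPM at E5.25 (log2 difference -4.47 ± 0.51, adjusted p = 4.5e-09). Esam, an endothelial adhesion molecule, Hspb8, a small heat shock protein, and Hpgd, a prostaglandin dehydrogenase, fell from 11.6, 13.4 and 10.6 TPM to 0.938, 1.31 and 1.17 TPM.

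Of 14 trophoblast giant cell and trophectoderm genes tested, 6 were lower and 1 was higher (1.32% and 2.78% of all genes), with a median log2 difference of -1.32. The helix-loop-helix factor Ascl2 (4.84 against 38.3 TPM, log2 difference -2.75 ± 0.60), the keratin Krt7 (4.30 against 25.7 TPM, -2.32 ± 0.53), Plac1 (36.1 against 155 TPM, -2.08 ± 0.52) and the galectin Lgals1 (96.1 against 404 TPM, -2.06 ± 0.26) fell with Prl3d1 and Hand1. Plac1 and Lgals1 were named after their values were seen. The higher member was Krt18, described above. In PrE of E4.75 these transcripts were low, with Prl7a1 listed at 0, Prl3d1 at 0.561, Hand1 at 0.209 and Ldoc1 at 1.96 TPM. Their means were thus high in PrE at E5.0 and not at E4.75. In TGC of E4.75 Prl3d1 was 20926 and Prl7a1 441 TPM, so that Prl7a1 exceeded Prl3d1 in PrE of E5.0 and was far below it in TGC. In Epi of E5.0 Lgals1 was 261, Hand1 101, Krt7 16.1, Ldoc1 15.3 and Ascl2 10.4 TPM, so these were not particular to the TGC libraries. Plac1, Prl3d1 and Prl7a1 were 4.66, 0.532 and 0.412 TPM in that group. Of the 206 lower genes 55 (26.7%) were called higher in TGC of E4.75 than in PrE of E4.75, against 6.83% of all genes, and these were 5.17% of the 1064 genes so called. A larger number, 97 (47.1%, against 13.9% of all genes and 4.48% of the 2165 so called), were called lower in TGC than in PrE of E4.75. The former comparison also held 91 (21.1%) of the 432 higher genes. With a pseudocount of 0.1 TPM the calls of Ascl2, Krt7 and Plac1 were lost (adjusted p = 0.066, 0.1 and 0.097).

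**Figure D3:**
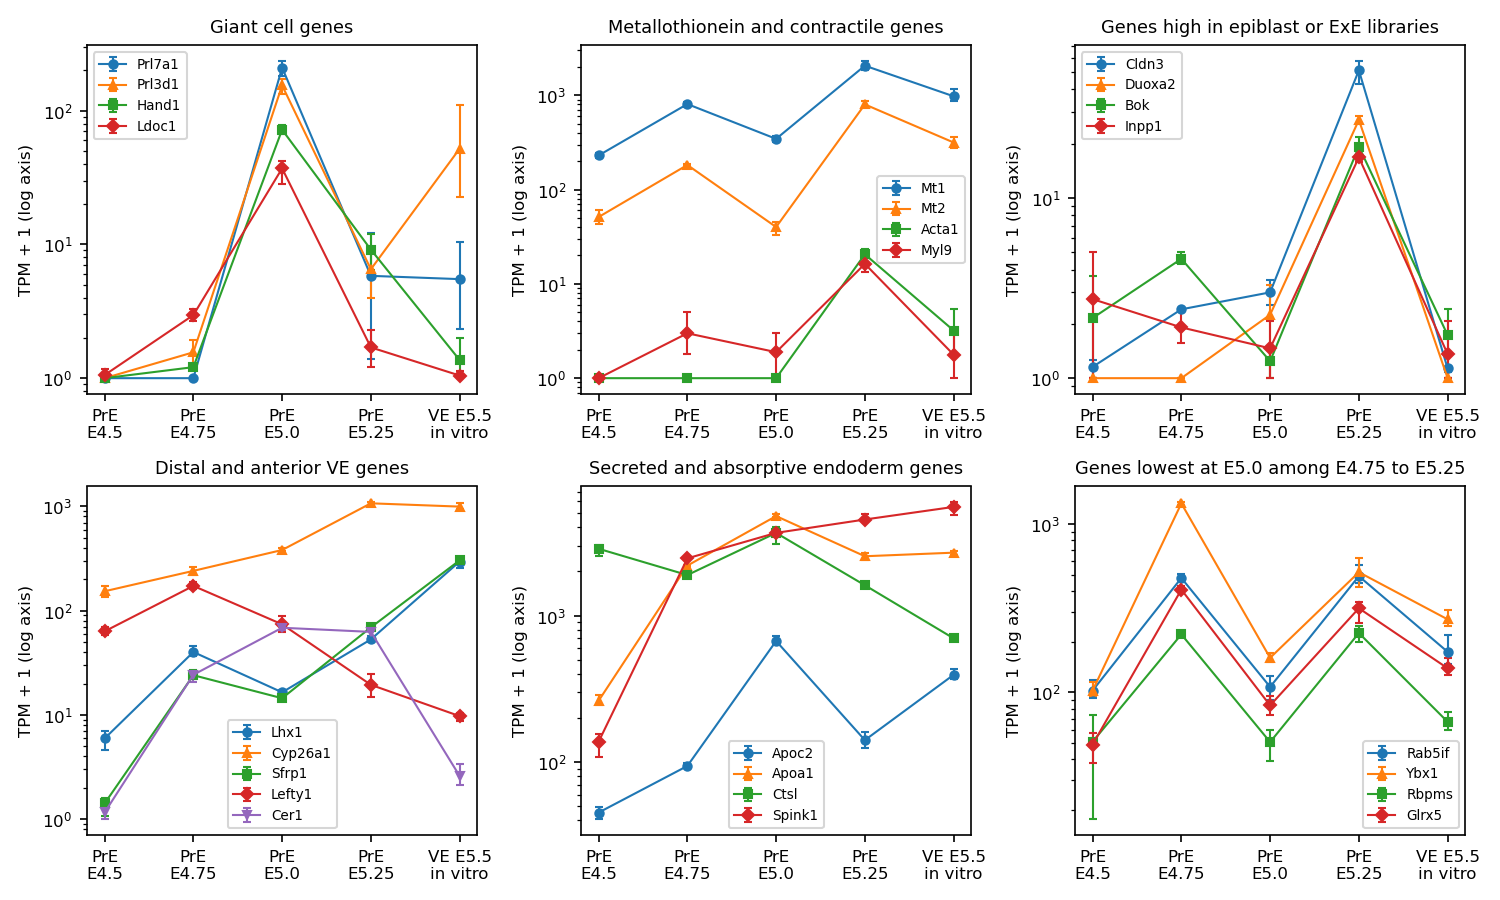
Mean TPM + 1 (log axis) of named genes in PrE of E4.5 to E5.25 and VE of E5.5 in vitro, with bars from the lowest to the highest of 3 libraries. Prl7a1 stands at 208 TPM at E5.0 and 4.82 TPM at E5.25, and Cldn3 at 1.99 and 50.1 TPM.

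Few secreted carriers of the visceral endoderm were called, most of them lower. Of 19 tested, 4 were lower and 1 was higher (1.32% and 2.78% of all genes), with a median log2 difference of -0.72 against 0.03 over all genes, and in 13 the E5.25 libraries lay wholly below those of E5.0 (13.8% of all genes). Apoc2 (chromosome 7, 19671579 to 19677941), the apolipoprotein that activates lipoprotein lipase, was 727, 630.4 and 650.3 TPM at E5.0 and 124, 136 and 161 TPM at E5.25 (log2 difference -2.25 ± 0.28, adjusted p = 5.9e-08). Apoa2, a protein of high-density lipoprotein, was 45.3, 39.8 and 30.3 TPM at E5.0 and 5.52, 3.36 and 8.42 TPM at E5.25 (log2 difference -2.59 ± 0.37, adjusted p = 7.5e-07). Neither gene's groups overlapped.

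Apoa4 (214 against 541 TPM, adjusted p = 0.049) and Afp, alpha-fetoprotein (11.1 against 42.2 TPM, adjusted p = 0.03), fell as well, but both calls were lost without each of the 6 libraries in turn (adjusted p = 0.096 to 0.16 and 0.058 to 0.13). So was that of the higher member Rbp4, the retinol carrier (81.1 against 29.6 TPM, adjusted p = 0.036, then 0.057 to 0.14). With any 1 library left out, and with a pseudocount of 0.1 TPM, the list had 2 lower and 0 higher. Apoa1 was 4728, 4675 and 4907 TPM at E5.0 and 2383, 2554 and 2676 TPM at E5.25 (log2 difference -0.91 ± 0.51, adjusted p = 0.4) and Ttr, the thyroid hormone carrier, 2449.7, 2145 and 2235 TPM at E5.0 and 1261, 1393 and 1487 TPM at E5.25 (log2 difference -0.72 ± 0.21, adjusted p = 0.022). Their libraries did not overlap either, but neither was called, Apoa1 by its p and Ttr by its size. Apoe was 8268 against 11359 TPM (adjusted p = 0.083).

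Outside the list Creb3l3, Cideb, Fabp1 and Slc39a5 fell. The first 3 were named after their values were seen, so they stand for no group of genes. Creb3l3, a membrane-bound transcription factor of lipid metabolism in liver and gut, was 57.8, 55.4 and 55.7 TPM at E5.0 and 11.8, 8.67 and 14.7 TPM at E5.25 (log2 difference -2.2 ± 0.41, adjusted p = 1.3e-04). Cideb, a lipid droplet protein of hepatocytes, was 31.9, 26.7 and 38.6 TPM at E5.0 and 5.03, 6.34 and 8.64 TPM at E5.25 (log2 difference -2.13 ± 0.29, adjusted p = 3.4e-07). Fabp1, the liver fatty acid binding protein, was 38.1, 11.0 and 19.9 TPM at E5.0 and 3.11, 3.45 and 5.03 TPM at E5.25 (log2 difference -2.16 ± 0.36, adjusted p = 2.7e-05). Slc39a5, a zinc importer, was 22.8, 29.2 and 24.7 TPM at E5.0 and 2.19, 3.82 and 4.52 TPM at E5.25 (log2 difference -2.59 ± 0.38, adjusted p = 1.5e-06). With a pseudocount of 0.1 TPM the calls of Creb3l3 and Fabp1 were lost (adjusted p = 0.18 and 0.089). These 4 genes are near 0 in Epi and TGC, where the highest mean among them was 1.52 TPM, of Creb3l3 in TGC of E4.75.

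Among endocytic receptors and lysosomal proteases the falls were smaller. Of 22 tested, 3 were lower and 0 higher (1.32% and 2.78% of all genes), with a median of -0.66. The lower count was 5 under median-ratio scaling and 3 to 5 without 1 library. In 18 the E5.25 libraries lay wholly below those of E5.0 (13.8% of all genes). Ctsl (chromosome 13, 64361890 to 64370772), the cathepsin that degrades ingested protein in this tissue, was 3056, 3931 and 3998 TPM at E5.0 and 1622, 1622 and 1581 TPM at E5.25 (log2 difference -1.18 ± 0.14, adjusted p = 3.7e-08). Cubn, which encodes the receptor cubilin, was 179, 184 and 189 TPM at E5.0 and 84.5, 84.8 and 69.4 TPM at E5.25 (log2 difference -1.20 ± 0.32, adjusted p = 0.01), a call lost without E5.25 replicate 3 (adjusted p = 0.058) and with a pseudocount of 0.1 TPM (adjusted p = 0.49). Ctsd, another lysosomal protease, was 338 against 689 TPM (log2 difference -1.02 ± 0.24, adjusted p = 0.0024) and fell short of the size threshold without E5.0 replicate 3 (log2 difference -0.99). The cathepsin Ctsz (1732 against 3421 TPM, log2 difference -0.98 ± 0.21, adjusted p = 7.7e-04) missed it with all 6 libraries. The endocytic adaptor Dab2 was 1729.8 against 2697 TPM (adjusted p = 0.23) and was not called.

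Cholesterol synthesis and the endoplasmic reticulum held 1 call each. Of 22 cholesterol synthesis genes 1 was lower (1.32% of all genes), and 4 were under median-ratio scaling and 3 in the fit of only the PrE groups. The median was -0.65, and 16 lay wholly below E5.0 (13.8% of all genes). The called gene was Dhcr7, which catalyses the last step to cholesterol (76.7, 60.3 and 68.8 TPM at E5.0 and 20.4, 18.3 and 16.2 TPM at E5.25, log2 difference -1.85 ± 0.33, adjusted p = 7.5e-05), and Msmo1, a sterol demethylase, was 327 against 629.5 TPM (log2 difference -0.94 ± 0.20, adjusted p = 0.0011). Of 23 endoplasmic reticulum chaperones and stress genes 1 was lower (1.32% of all genes), Calr, a calcium-binding chaperone (528, 481 and 509 TPM at E5.0 and 214, 218 and 224 TPM at E5.25, log2 difference -1.21 ± 0.16, adjusted p = 1.0e-07). The median of that list was -0.15, and P4hb, a disulfide isomerase, was 667 against 1159.8 TPM (log2 difference -0.80 ± 0.15, adjusted p = 1.0e-04). Basement membrane genes had 1 lower of 23 (1.32% of all genes), the collagen chaperone Serpinh1 (201, 108 and 108 TPM at E5.0 and 47.7, 39.6 and 47.1 TPM at E5.25, log2 difference -1.55 ± 0.39, adjusted p = 0.0055). Its E5.0 replicate 1 was nearly 2 times the other E5.0 libraries, and without it the call was lost (adjusted p = 0.075), as it was with a pseudocount of 0.1 TPM (adjusted p = 0.25). Sparc, a matrix glycoprotein abundant in parietal endoderm, was 889 against 1537 TPM (log2 difference -0.79 ± 0.16, adjusted p = 5.4e-04). Of 15 parietal endoderm genes 2 were lower (1.32% of all genes): Thbd, thrombomodulin, which was 2.16, 2.60 and 2.00 TPM at E5.0 and 0.0894, 0 and 0 TPM at E5.25, and Pdgfra, below.

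The receptor gene that drives the reporter fell with these. Pdgfra was 17.0, 18.8 and 17.4 TPM at E5.0 and 6.90, 7.28 and 8.16 TPM at E5.25 (log2 difference -1.15 ± 0.33, adjusted p = 0.018), without overlap. The call was lost without E5.0 replicate 2 or 3 or E5.25 replicate 1 or 2 (adjusted p up to 0.075). In PrE of E4.5 and E4.75 it was 5.52 ± 2.80 and 17.4 ± 2.51 TPM, and in VE of E5.5 in vitro 11.6 ± 0.110 TPM (SD, n = 3 each). Of 17 primitive endoderm genes 1 was lower, Pdgfra, and 1 higher, the WNT effector Tcf7l1 (below), against 1.32% and 2.78% of all genes. The list had a median of 0.03 that became -0.13 under median-ratio scaling. Under quantile normalization and median-ratio scaling 0 were higher, with Tcf7l1 at adjusted p = 0.11 and 0.12, and in the fit of only the PrE groups it was at 0.28. With a pseudocount of 0.1 TPM the Pdgfra call was lost (adjusted p = 0.38). Cited1, a transcriptional co-regulator, was 2075 against 3158 TPM (adjusted p = 0.51).

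Among genes of the distal and anterior visceral endoderm Lhx1, Cyp26a1, Sfrp1 and Gsc rose and the Nodal inhibitor Lefty1 fell. These were 4 higher and 1 lower of 14 tested (2.78% and 1.32% of all genes), with 9 uncalled and a median log2 difference of 0.58. Lhx1 (chromosome 11, 84517975 to 84525534), a LIM homeobox factor of the anterior visceral endoderm, was 16.3, 16.1 and 14.0 TPM at E5.0 and 50.8, 56.0 and 49.1 TPM at E5.25 (log2 difference 1.69 ± 0.30, adjusted p = 7.4e-05). Cyp26a1 (chromosome 19, 37697738 to 37701536), which degrades retinoic acid, was 379, 394 and 369 TPM at E5.0 and 1093, 1028 and 1088 TPM at E5.25 (log2 difference 1.49 ± 0.32, adjusted p = 9.2e-04). Sfrp1, a secreted WNT antagonist, was 14.2, 12.8 and 13.3 TPM at E5.0 and 70.1, 70.4 and 63.8 TPM at E5.25 (log2 difference 2.26 ± 0.55, adjusted p = 0.0044). In each of the 3 genes every E5.25 library was at least 2 times every E5.0 library.

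Gsc, a homeobox repressor, was 12.3, 14.7 and 11.7 TPM at E5.0 and 21.1, 32.2 and 51.4 TPM at E5.25 (log2 difference 1.29 ± 0.40, adjusted p = 0.034), with the 3 E5.25 libraries spread widely. Its call was lost without any library but E5.25 replicate 1 (adjusted p up to 0.26). Lefty1 was 61.5, 70.0 and 87.3 TPM at E5.0 and 13.8, 17.9 and 23.6 TPM at E5.25 (log2 difference -1.94 ± 0.42, adjusted p = 0.0011). Cer1, Hhex (50.6 against 56.3 TPM), Otx2 (85.0 against 77.8 TPM), Eomes (38.5 against 24.3 TPM) and Dkk1 (142 against 111 TPM) did not reach a call. In VE of E5.5 in vitro Lhx1 was 295 ± 35.2, Sfrp1 303 ± 11.1, Cyp26a1 994 ± 69.1, Lefty1 8.74 ± 0.930 and Cer1 1.60 ± 0.675 TPM (SD, n = 3). In PrE of E4.75 Lhx1 and Sfrp1 were 39.1 ± 5.28 and 23.04 ± 2.64 TPM, above their E5.0 means, a difference not tested here. With a pseudocount of 0.1 TPM all 5 calls of the list were lost, Lhx1, Cyp26a1, Sfrp1, Lefty1 and Gsc (adjusted p = 0.11, 0.26, 0.23, 0.18 and 0.63). Gsc was also lost under quantile normalization and median-ratio scaling (adjusted p = 0.056 and 0.07). Of the 5 called genes the highest mean in ExE of E4.75 was that of Cyp26a1, at 18.96 TPM.

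Signalling lists held 3 to 4 rises each. In the Nodal pathway, which patterns the endoderm and epiblast, the ligand Nodal was 21.5 against 34.7 TPM and its co-receptor Cfc1 229.8 against 195 TPM, both uncalled. Of 21 genes 3 rose (2.78% of all genes): the SMAD partner Foxh1 (91.2 against 41.8 TPM, log2 difference 1.11 ± 0.29, adjusted p = 0.0073), the SMAD repressor Skil (30.8, 17.7 and 11.6 TPM at E5.0 and 65.7, 65.3 and 52.7 TPM at E5.25, log2 difference 1.66 ± 0.34, adjusted p = 5.4e-04) and the proprotein convertase Pcsk6 (3.41 against 0.594 TPM, adjusted p = 0.023). The Pcsk6 call was lost without E5.0 replicate 2 or 3 or E5.25 replicate 2 (adjusted p up to 0.19). The lower member was Lefty1 (1.32% of all genes). The Foxh1 call was lost with a pseudocount of 0.1 TPM (adjusted p = 0.21) and, by its size, under both other scalings.

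In the BMP pathway 4 of 19 genes rose and 0 fell (2.78% and 1.32% of all genes). Beside the ligands Bmp4 and Bmp8b these were the secreted antagonist Nog (0.185, 0.152 and 0.968 TPM at E5.0 and 5.89, 2.22 and 3.81 TPM at E5.25, log2 difference 1.77 ± 0.21, adjusted p = 2.2e-08) and the homeobox target Msx1 (1.41, 0 and 0.137 TPM at E5.0 and 8.80, 9.86 and 10.9 TPM at E5.25, log2 difference 2.95 ± 0.69, adjusted p = 0.0029). The target genes Id1 (492 against 389.8 TPM) and Id3 (446 against 423 TPM) were not called. In VE of E5.5 in vitro Bmp4 was 3.99 ± 1.68 TPM and Msx1 was 246 ± 52.6 TPM.

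In the WNT pathway 4 of 25 genes rose and 0 fell (2.78% and 1.32% of all genes). The higher count was 3 under quantile normalization, 2 under median-ratio scaling, 2 in the fit of only the PrE groups and 1 with a pseudocount of 0.1 TPM. Tcf7l2, a transcriptional effector, was 52.8, 21.0 and 21.4 TPM at E5.0 and 105, 107 and 114 TPM at E5.25 (log2 difference 1.88 ± 0.31, adjusted p = 2.3e-05), with E5.0 replicate 1 above the other 2 of its group. Tcf7l1, a repressive effector, was 22.2 against 9.19 TPM (adjusted p = 0.031), Znrf3, which removes WNT receptors, 10.1 against 4.14 TPM (adjusted p = 0.016), and Sfrp1 is given above. The Tcf7l1 call was lost without any library but E5.0 replicate 1 (adjusted p up to 0.18), and that of Znrf3 without E5.0 replicate 2 or 3 or E5.25 replicate 1 or 2 (up to 0.094). Under median-ratio scaling Tcf7l1 had an adjusted p of 0.12 and Znrf3 fell short by its size. Ctnnb1, beta-catenin, was 144 against 89.7 TPM (log2 difference 0.67 ± 0.21, adjusted p = 0.042), below the size threshold.

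In the FGF and ERK pathway 4 of 20 genes rose and 0 fell (2.78% and 1.32% of all genes). The list's median log2 difference was 0.09 and changed sign under median-ratio scaling (-0.0098), where 3 were higher. Called or not, 11 had a positive and 8 a negative difference. Dusp6, a phosphatase that acts on ERK and a target of that pathway, was 7.22, 5.78 and 6.13 TPM at E5.0 and 20.3, 24.6 and 22.1 TPM at E5.25 (log2 difference 1.66 ± 0.21, adjusted p = 9.4e-08). Spry2, a feedback inhibitor, was 45.0, 16.7 and 16.0 TPM at E5.0 and 101, 109.5 and 91.1 TPM at E5.25 (log2 difference 2.08 ± 0.42, adjusted p = 4.6e-04). The receptor Fgfr1 rose from 0.223 to 2.26 TPM (adjusted p = 0.002) and Spred1 from 0.875 to 3.51 TPM (adjusted p = 0.016). The Spred1 call was lost without replicate 3 of either age (adjusted p = 0.15 and 0.12). The ligands Fgf5 (131 against 146 TPM) and Fgf8 (120.5 against 129.5 TPM) were not called. Nor were Etv4, Etv5, Dusp4 and Egr1 (log2 differences -0.74, -0.41, -0.36 and -0.20), or Spry1 and Spry4 (0.08 and 0.26). Dusp6 was also high in ExE of E4.75 (132 TPM) and Epi of E5.25 (166 TPM). Over these signalling lists, Skil, Tcf7l2, Znrf3, Spry2 and Spred1 were also called higher in Epi without suffix over the same ages. Their log2 differences there were 1.71, 1.55, 1.23, 1.91 and 1.07, and no difference between their PrE and Epi changes was called. The PrE changes of Pcsk6, Bmp4, Bmp8b, Nog and Dusp6 were called above those of Epi. Foxh1, Msx1, Sfrp1, Tcf7l1 and Fgfr1 were called in neither way.

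Immediate early genes split. Fos was 7.28, 10.1 and 5.86 TPM at E5.0 and 39.2, 46.1 and 41.4 TPM at E5.25 (log2 difference 2.33 ± 0.35, adjusted p = 2.5e-06) and Dusp1, a phosphatase of stress kinases, 48.2 against 19.1 TPM (log2 difference 1.30 ± 0.30, adjusted p = 0.002), while Junb was 72.6, 81.2 and 79.1 TPM at E5.0 and 31.4, 27.2 and 39.1 TPM at E5.25 (log2 difference -1.24 ± 0.33, adjusted p = 0.0091). The Junb call was lost without E5.25 replicate 2 (adjusted p = 0.063). Of 24 immediate early and heat shock genes these were the only 3 called (2.78% of all genes higher and 1.32% lower), and the chaperones Hspa8 (4233 against 3502 TPM) and Hspb1 (1875 against 2577 TPM) were not.

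Among the 23 developmental regulators tested, Mixl1 was the 1 called, as higher (2.78% of all genes). This homeobox gene of primitive streak and endoderm was 42.8, 26.7 and 21.2 TPM at E5.0 and 197, 188 and 167 TPM at E5.25 (log2 difference 2.62 ± 0.56, adjusted p = 8.9e-04), and reached 1373 ± 31.9 TPM in VE of E5.5 in vitro. Of 21 imprinted genes 4 were higher and 1 lower (2.78% and 1.32% of all genes), and 2 and 0 with a pseudocount of 0.1 TPM. The higher were Mest, a hydrolase family gene (30.3, 30.4 and 30.8 TPM at E5.0 and 192, 148 and 168 TPM at E5.25, log2 difference 2.43 ± 0.50, adjusted p = 5.3e-04), the growth regulator Grb10 (13.4, 15.6 and 13.6 TPM at E5.0 and 64.8, 72.1 and 62.7 TPM at E5.25, log2 difference 2.15 ± 0.27, adjusted p = 7.4e-08), the ubiquitin ligase Ube3a (9.05 against 3.25 TPM, log2 difference 1.27 ± 0.29, adjusted p = 0.0019) and an amino acid transporter gene, Slc38a4 (16.4 against 5.35 TPM, adjusted p = 0.03). The Slc38a4 call was lost without each library in turn (adjusted p = 0.064 to 0.13). The lower member was Ascl2, given with the giant cell genes. With a pseudocount of 0.1 TPM the calls of Mixl1 and Mest were lost (adjusted p = 0.25 and 0.11). In VE of E5.5 in vitro Mest and Grb10 were 435 ± 50.9 and 106 ± 8.85 TPM.

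In glycolysis 2 of 18 genes rose (2.78% of all genes), Ldhb and the hexokinase Hk2 (46.1 against 18.4 TPM, log2 difference 1.31 ± 0.29, adjusted p = 0.0013). The list's median was -0.20. Ldhb was 3.75, 5.62 and 4.52 TPM at E5.0 and 90.5, 94.7 and 82.1 TPM at E5.25 (log2 difference 4.01 ± 0.69, adjusted p = 3.9e-05), against 2.95 TPM in ExE of E4.75, 0.899 TPM in TGC and 246 TPM in Epi of E5.0. The enolase Eno1 was 3887 against 2377 TPM (log2 difference 0.71 ± 0.10, adjusted p = 3.1e-07), below the size threshold. Of 19 p53 targets 3 rose (2.78% of all genes): the junction protein Perp (69.2 against 10.8 TPM, log2 difference 2.56 ± 0.44, adjusted p = 4.5e-05), Phlda3, an AKT inhibitor (60.8 against 19.3 TPM, log2 difference 1.64 ± 0.30, adjusted p = 1.3e-04), and Btg2, an anti-proliferative gene (41.7 against 16.4 TPM, adjusted p = 0.028). The Btg2 call was lost without E5.0 replicate 2 or 3 or E5.25 replicate 1 or 3 (adjusted p up to 0.14). Perp is also high in Epi of E5.0 (161 TPM) and ExE of E4.75 (84.0 TPM). In the mitosis and replication list 1 of 29 rose (2.78% of all genes), the cyclin Ccnd2 (3.77 against 1.17 TPM, adjusted p = 0.02), a call lost without E5.0 replicate 2 or 3 or E5.25 replicate 1 or 3 (up to 0.14).

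The study concerns bivalent chromatin, which carries both H3K4 and H3K27 methylation, so the genes that write and remove these marks were listed. Of 30 Polycomb genes 1 rose, which is near the share of all genes (2.78%). It was Ezh2, the H3K27 methyltransferase (17.5, 24.2 and 16.9 TPM at E5.0 and 58.5, 43.5 and 47.2 TPM at E5.25, log2 difference 1.31 ± 0.27, adjusted p = 6.2e-04). The median of that list was 0.28, and its partner Eed (129.7 against 64.6 TPM, log2 difference 0.98 ± 0.19, adjusted p = 2.8e-04) fell just short of the size threshold. Of 21 H3K4 methyltransferases and H3K4 or H3K27 demethylases 3 rose (2.78% of all genes), the H3K4 demethylases Kdm1a (37.3 against 17.6 TPM, log2 difference 1.03 ± 0.26, adjusted p = 0.0063), Kdm5a (13.7 against 6.20 TPM, log2 difference 1.04 ± 0.30, adjusted p = 0.022) and Kdm5b (20.2 against 9.54 TPM, log2 difference 1.04 ± 0.24, adjusted p = 0.0027). All 3 lay at the size threshold, and under quantile normalization and under median-ratio scaling 0 of them were called. Without 1 library the list had 0 to 4 higher. Kdm1a was lost without E5.25 replicate 1 (log2 difference 0.89), Kdm5b also without E5.0 replicates 2 and 3, and Kdm5a without any library but E5.0 replicate 1. In Epi without suffix Ezh2, Kdm1a and Kdm5b were also called higher (log2 differences 1.47, 1.35 and 1.39), while Eed (0.85) and Kdm5a (0.59) were not. For none of these genes was a difference between the PrE and Epi changes called. Of 11 DNA methylation genes 0 were called, with Dnmt3b, a de novo methyltransferase, at 134 against 86.1 TPM (log2 difference 0.64 ± 0.22, adjusted p = 0.067).

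The hypoxia list (15 tested) and the oxidative phosphorylation list (25 tested) had 0 calls, with medians of -0.31 and -0.07. In 2 and 3 of their genes the E5.25 libraries lay wholly above E5.0 (20.7% of all genes), and in 4 and 9 wholly below (13.8% of all genes). Of 22 pluripotency genes only Esrrb rose and only Pou5f1 fell, against 2.78% and 1.32% of all genes. The Pou5f1 fall (log2 difference -1.64 ± 0.40, adjusted p = 0.0049) was not called in the fit of only the PrE groups (adjusted p = 0.23). Dppa5a, a KH-domain protein, was 1891 against 3259.6 TPM (log2 difference -0.78 ± 0.09, adjusted p = 1.2e-08). Of 13 formative epiblast genes Dusp6 and the POU factor gene Pou3f1 rose (2.78% of all genes), and Pou3f1 was 0, 0 and 0.148 TPM at E5.0 and 3.99, 5.08 and 3.25 TPM at E5.25 (adjusted p = 1.5e-06). The uterine stroma list had 0 calls of 5 tested and the blood list 1 lower of 7 (1.32% of all genes), the surface antigen Cd52 (0.252 against 3.05 TPM).

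**Figure D4:**
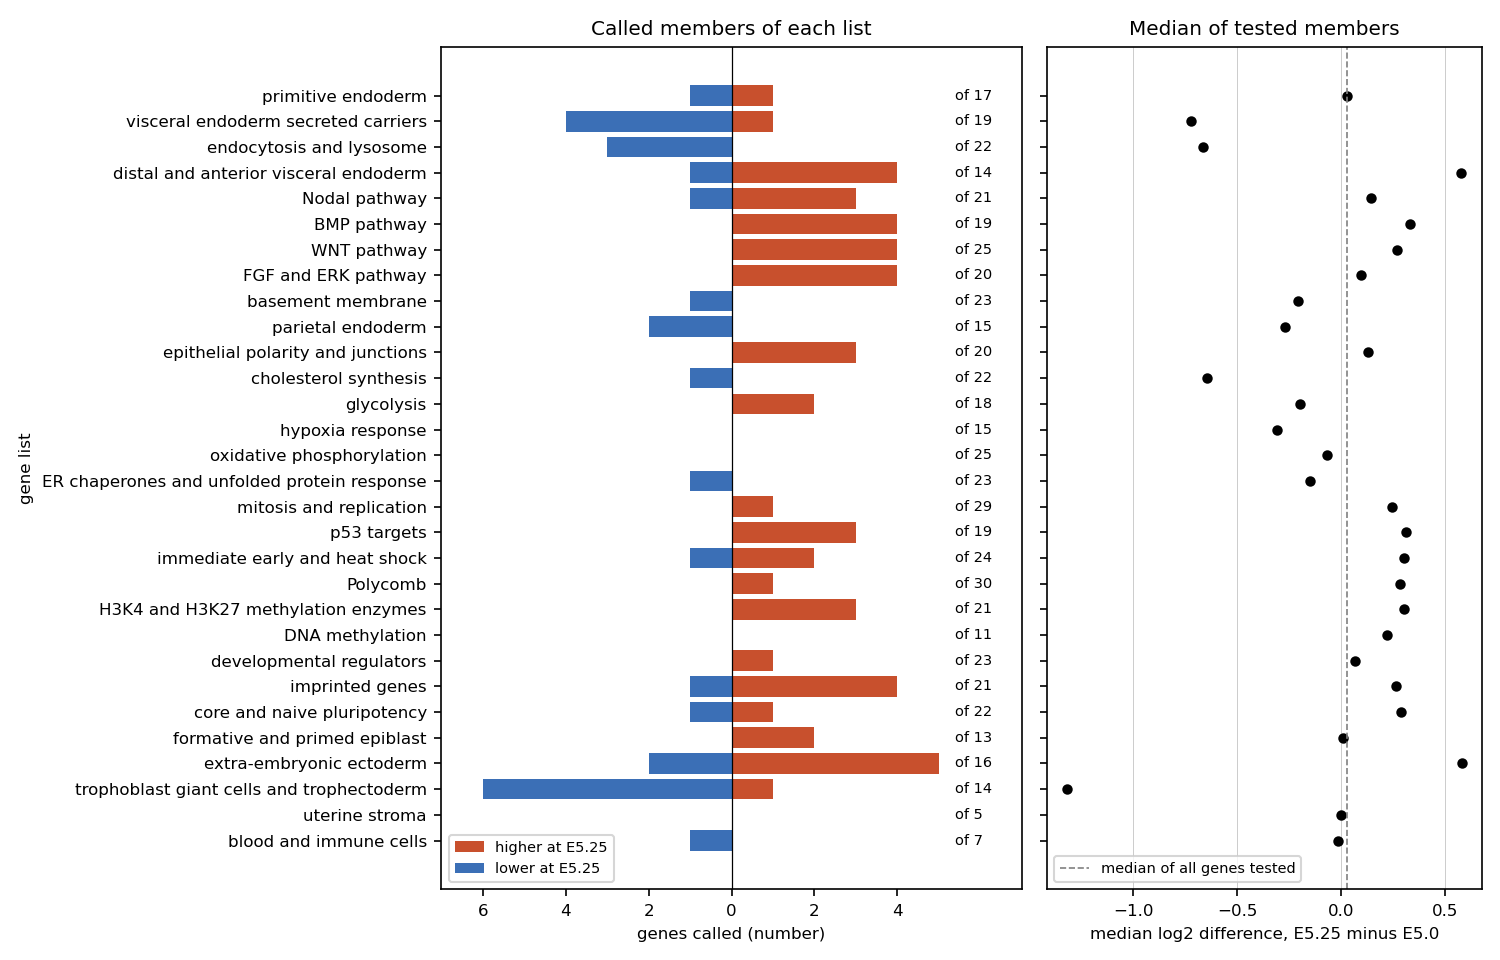
Number of called genes in each of 30 lists, higher (right) or lower (left) at E5.25 with the number tested beside the bars, and the median log2 difference of the tested members. The giant cell and trophectoderm list has 6 lower and a median of -1.32, and the distal and anterior visceral endoderm list 4 higher and a median of 0.58.

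The second comparison asks which of these changes differed from those of the epiblast over the same labelled ages. In Epi without suffix 589 genes were higher at E5.25 (3.78%) and 302 lower (1.94%). Of the 432 genes higher in PrE, 168 (38.9%) were also higher in Epi, which is 28.5% of the 589. Another 27 (6.25%, and 8.94% of the 302) were lower in Epi. Of the 206 genes lower in PrE, 28 (13.6%) were lower in Epi and 0 higher.

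The PrE change exceeded the Epi change for 210 genes (1.35%) and fell below it for 118 (0.758%). The rises of Cldn3 (5.70 ± 0.49 log2, adjusted p = 2.5e-12), Duoxa2 (5.24 ± 0.56), Inpp1 (5.19 ± 0.70), Bok (5.11 ± 0.72), the receptor gene Gprc5a (5.10 ± 0.55), Rhox4g (5.02 ± 0.46), Ak1 (4.31 ± 0.71) and the predicted gene Gm1673 (5.35 ± 0.81) headed the first group. In Epi, Cldn3 went from 308 ± 31.5 to 100.4 ± 6.95 TPM and Bok from 111 ± 23.7 to 48.7 ± 2.46 TPM (SD, n = 3 each). Bmp8b and Rhox4b, listed at 0 in PrE of E5.0, were called as well (adjusted p = 1.3e-07 and 3.6e-13). Of the genes described above, Mt2 (3.61 ± 0.29, adjusted p = 3.2e-13), Mt1 (2.04 ± 0.24), Krt8 (1.85 ± 0.39), Krt18 (1.67 ± 0.22), Cyp26a1 (2.75 ± 0.45) and Fos (3.80 ± 0.49) had PrE changes above those of Epi, and Lhx1, listed at 0 in Epi of E5.25, was called too (adjusted p = 0.0011).

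Spink1 (4.89 ± 0.65), Apoa1 (3.37 ± 0.72) and Ttr (adjusted p = 3.0e-10) were called although none was called within PrE. In Epi of E5.0 these endoderm products were 28.9 ± 11.6, 31.5 ± 7.46 and 11.9 ± 2.80 TPM, and in Epi of E5.25 0.225 ± 0.389, 0.673 ± 0.405 and 0 TPM. In PrE all 3 genes were at least 1261 TPM in every library, while in Epi of E5.25 each mean was under 1 TPM. On the other side, Prl3d1 (-7.07 ± 1.20, adjusted p = 7.0e-05), Prl7a1 (-6.29 ± 0.66), Rgcc (-4.52 ± 0.81), Ldoc1 (-3.85 ± 0.71), Apoa2 (-3.13 ± 0.52), the actin regulator Phactr1 (-3.34 ± 0.54) and Arhgdib (-3.21 ± 0.71) had PrE changes below those of Epi. Prl3d2, Prl3d3 and Prl2a1, which have a group at 0, were also called (adjusted p = 7.2e-06, 6.2e-06 and 1.3e-11). Within PrE, Phactr1 was 0.794 against 8.21 TPM, Arhgdib 3.51 against 14.8 TPM and Gprc5a 5.46 against 0.0623 TPM. The Arhgdib fall was lost without E5.25 replicate 2 (adjusted p = 0.089) and with a pseudocount of 0.1 TPM (adjusted p = 0.22).

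**Figure D5:**
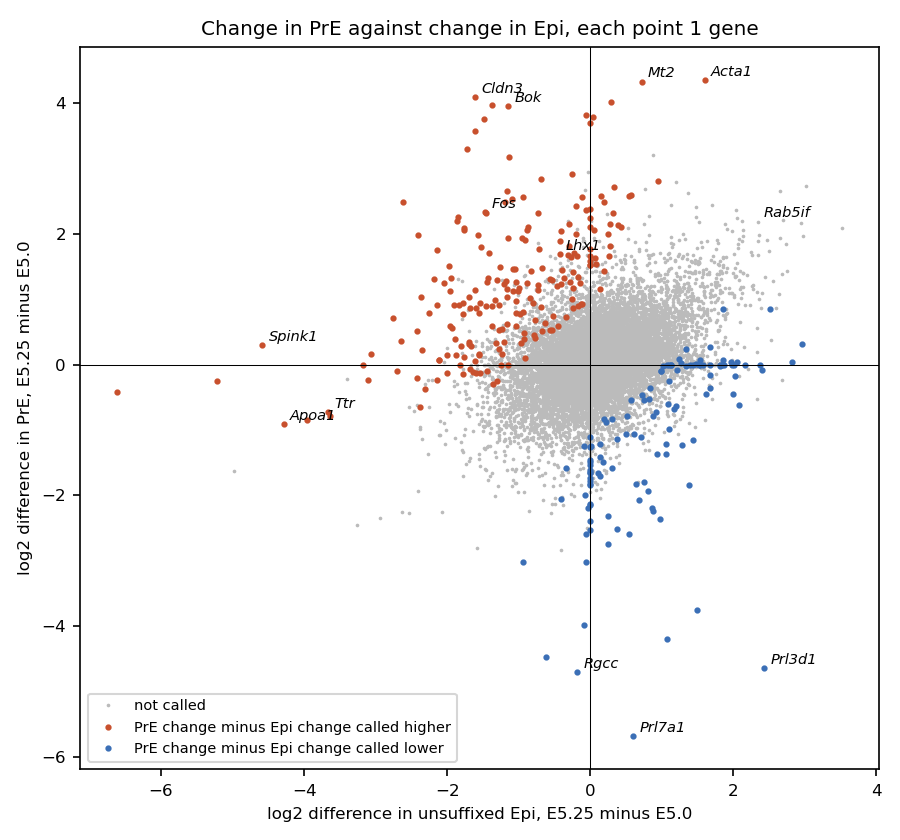
log2 difference in PrE against that in unsuffixed Epi, E5.25 minus E5.0, with 1 point per gene, for 15567 genes. Red and blue points are the 210 and 118 genes whose PrE change was called above or below the Epi change, with Cldn3 and Bok at the upper left and Prl3d1 at the lower right.

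The called genes were also read in libraries of other groups, which entered the first comparison only through the shared spread. Between PrE of E4.75 and VE of E5.5 in vitro, 12.8% of all genes were called higher and 6.5% lower. Of the 432 genes higher at E5.25, 208 (48.1%) were among the former, which is 10.5% of those 1988, and 39 (9.03%) among the latter. Of the 206 lower genes, 59 (28.6%) were also lower in VE and 19 (9.22%) higher. The VE means of Msx1, Lhx1, Sfrp1, Mixl1, Spry2 and Mest exceeded those of PrE of E5.25, while those of Acta1, Myl9, Cldn3, Duoxa2 and Bmp4 were at most 3.99 TPM.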

How the data were processed

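RNA of 67 wild-type mouse libraries in 23 groups was measured by Smart-seq2 of polyadenylated RNA. The authors deposited 1 table of TPM per gene, and HISAT2 2.2.1, StringTie 2.2.1, Cufflinks and the build mm10 are named per the submitters' processing notes. Their order, the annotation and the use of strand are not given in the sources used here. TPM keeps no read depth, so the precision of low values is unknown and a 0 is a listed value.

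The filter kept the 15567 of 25006 genes that had 1 TPM or more in 3 or more libraries. The values were tested as log2(TPM + 1) with limma 3.58.1 in R 4.3.3, in 1 fit of 23 group means with a trended variance, so that all groups share the estimate of spread. The contrasts were PrE of E5.25 minus E5.0, and that change minus the change in unsuffixed Epi. P-values were adjusted by Benjamini and Hochberg over all genes kept, at a threshold of 0.05 and a log2 difference of at least 1. On simulated data with 15343 genes, 200 of them changed, 66% of changes of log2 1.5 and 98% of changes of log2 3 were recovered in the PrE comparison, and 2.96% of calls were false. The simulated noise was normal, with the same SD for a gene in all groups, and no change was placed in genes of low mean at E5.0. These rates thus do not cover groups of unequal spread or genes that start near 0.

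The text names the 15 called genes of largest difference per direction with non-overlapping libraries and a higher mean of at least 5 TPM, without predicted genes, Y-linked genes and Xist. Other X-linked genes were kept. It also names up to 4 called genes per direction and 2 abundant uncalled genes per list, and a set of endoderm genes. For the difference from Epi it names up to 10 genes per direction. Genes outside this rule are said to be so where they appear, and Utf1, Ttr and Apoa1 serve as markers. The comparison, the lists and this rule were chosen with earlier results of these data known. Positions and promoter windows are RefSeq's on GRCm38.p6, matched by symbol, or for 103 genes by a single synonym, for 24930 of the 25006 genes. Alternatives covered the pseudocount, the filter, quantile and median-ratio scaling, array weights, smaller fits, a replicate block, the size threshold and each library left out.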

Additional observations from a re-analysis of the deposited data

Results flagged for a closer look

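These results differed between PrE and Epi over the same labelled ages, by the limma test of the difference between the changes, with values as log2 of the PrE change minus the Epi change. The difference was positive for 210 genes and negative for 118. The largest named positive values were Cldn3 5.70, Gm1673 5.35, Duoxa2 5.24, Inpp1 5.19, Bok 5.11, Gprc5a 5.10, Rhox4g 5.02, Spink1 4.89 and Ak1 4.31. Those of Fos (3.80), Mt2 (3.61), Apoa1 (3.37), Cyp26a1 (2.75), Mt1 (2.04), Krt8 (1.85) and Krt18 (1.67) were smaller. Negative values were found for Prl3d1 (-7.07), Prl7a1 (-6.29), Rgcc (-4.52), Ldoc1 (-3.85), Phactr1 (-3.34), Arhgdib (-3.21) and Apoa2 (-3.13). For genes with a group listed at 0 the adjusted p is given in place of a size. It was 1.3e-07 for Bmp8b, 3.6e-13 for Rhox4b, 0.0011 for Lhx1 and 3.0e-10 for Ttr, on the positive side. On the negative side it was 1.3e-11 for Prl2a1, 7.2e-06 for Prl3d2 and 6.2e-06 for Prl3d3.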

How the results depend on the processing

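Limits: each group held 3 libraries of few cells, depth is unknown, and low TPM carry an error that cannot be stated. Of 107 called genes among those named, 68 kept their call in every alternative, 85 without each library in turn, and 0 reversed.

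The counts of genes higher and lower in PrE moved by over 1.5 times under array weights (686 and 425) and with no minimum difference (767 and 357). In a fit of only the groups compared the lower count was 373. The counts above and below the Epi change became 631 and 543 under array weights and 461 and 326 in a fit of only the groups compared, and with a pseudocount of 0.1 TPM the lower was 72. Without 1 library at a time, 303 to 402 genes were higher and 143 to 172 lower in PrE, and 171 to 199 above and 75 to 166 below the Epi change, the 75 without PrE E5.25 replicate 2. The cause of these moves was not tested.

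The pseudocount of 0.1 TPM removed 35 calls among the named results, median-ratio scaling 13 and quantile normalization 9. Uncalled genes changed sign under median-ratio scaling: Gata4 (-0.128), Id3 (-0.0894), Otx2 (-0.0375), Utf1 (-0.0348) and Sox17 (-0.0151). Gata4 was -0.0925 under quantile normalization. Without 1 library at a time Gata4 ran from -0.0265 (without PrE E5.0 replicate 3) to 0.0707, and Ddx3y from -0.314 to 0.0121 (without PrE E5.0 replicate 1).

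With the replicate number as a block, 422 genes were higher and 194 lower, and 201 and 107 above and below the Epi change, and of the named calls Apoa4 was lost. Same-numbered PrE libraries did not deviate together (correlations -0.0068, -0.0059 and 0.0199), and they were not treated as pairs. The labels do not say whether the numbers mark a shared origin, and these correlations cannot tell.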

Other observations

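A set of abundant transcripts was low at E5.0 in both lineages. Rab5if was 124, 107 and 88.6 TPM at E5.0 and 572, 443 and 451 TPM at E5.25 in PrE (log2 difference 2.19 ± 0.24, adjusted p = 2.5e-09), and 477 ± 20.6 TPM in PrE of E4.75. Ybx1, a cold shock domain RNA-binding protein, was 516 against 159 TPM in PrE, Rbpms, an RNA-binding protein, 224 against 49.7 TPM and Glrx5, a glutaredoxin of iron-sulphur assembly, 315 against 82.7 TPM. All 4 rose at E5.25. In PrE of E4.75 these 3 were 1323, 220.1 and 407 TPM. In unsuffixed Epi the 4 genes in the same order went from 96.5, 211, 28.5 and 43.5 TPM to 491, 1026, 226 and 244 TPM, and the limma test called no difference between the PrE and Epi changes of these 4 (adjusted p = 0.11 to 0.99). Epi of E5.0 labelled in vivo held 195, 213, 103 and 111 TPM. They were named after their values were seen.

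Xist, the RNA that silences an X chromosome in female cells, was 0.241, 0 and 0.0435 TPM at E5.0 and 8.62, 5.19 and 6.48 TPM at E5.25 (log2 difference 2.81 ± 0.33, adjusted p = 1.2e-08). The Y-linked genes Ddx3y (14.0 against 15.9 TPM), Eif2s3y (39.8 against 55.9 TPM), Kdm5d (0.373 against 1.03 TPM) and Uty (3.15 against 4.51 TPM) were read at both ages and were not called. All 4 means were lower at E5.25. For Eif2s3y and Uty every E5.25 library lay below every E5.0 library, as was so for 13.8% of all genes. Xist was at most 0.241 TPM at E5.0 and at least 5.19 TPM at E5.25, and the sex of the pooled embryos is not given in the labels used here.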
